A study of Mus musculus with 12 samples.

Results

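The miR-200 family (mmu-miR-200a, mmu-miR-200b, mmu-miR-200c, mmu-miR-141 and mmu-miR-429) and the miR-183 cluster (mmu-miR-182, mmu-miR-183 and mmu-miR-96) are described here in miRNA-Seq data of mouse frontal cortex (FCx) and hippocampus (HP). The 8 miRNAs were taken by name from the deposited count files, without their star forms (the less abundant strands), and make up 8 of the 469 miRNAs listed in any of the 12 lane files. They were chosen by their measured difference between FCx and HP in these same files, so that difference is given below as a description, and no test of it is read as evidence about them. The tissue of both regions came from male C57BL/6J mice of 8 weeks with no treatment. The study describes both regions as dissected from 3 mice, so FCx and HP appear to come from the same animals. The FCx samples were cortical tissue cut from a slice given in the labels as Bregma -1.5 to -3.5, whose sign could not be checked here, and the HP samples were the entire hippocampus. For each region, tissue of 3 mice was pooled and its RNA was made into 3 libraries that differ in a tag of 6 nt, the index, with which the 5′ adaptor ends (index 3, UUAGGC; index 7, CAGAUC; index 11, GGCUAC). Each library was sequenced alone in an individual lane and again in a pooled lane with the other libraries of its region, and both runs were summed. The spread between the 3 libraries of a region is thus technical, includes the index, and holds no difference between animals.

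Mature miRNAs bind mRNAs mainly through their seed, bases 2 to 8, and lower the translation and stability of those mRNAs. The miR-200 family is known for repressing the transcription factors Zeb1 and Zeb2 and thereby keeping cells epithelial, and it is also known in the olfactory system, in sensory epithelia and in neuronal progenitors. The miR-183 cluster is known from sensory organs, such as the retina, the hair cells of the inner ear, the olfactory epithelium and sensory ganglia. In bulk tissue, fewer cells with a miRNA and less of it per cell cannot be told apart.

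The mature sequences, taken from RefSeq for all 8 members, show which members can be expected to share targets and which can receive each other's reads. The seed is in capitals.
mmu-miR-200b: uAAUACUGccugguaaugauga
mmu-miR-200c: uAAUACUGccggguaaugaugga
mmu-miR-429: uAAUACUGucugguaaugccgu
mmu-miR-200a: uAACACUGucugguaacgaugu
mmu-miR-141: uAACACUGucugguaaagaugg
mmu-miR-182: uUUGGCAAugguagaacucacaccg
mmu-miR-183: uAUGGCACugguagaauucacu
mmu-miR-96: uUUGGCACuagcacauuuuugcu
Within the miR-200 family, mmu-miR-200b, mmu-miR-200c and mmu-miR-429 had the seed AAUACUG, and mmu-miR-200a and mmu-miR-141 had the seed AACACUG, which differ at 1 position (U4C from mmu-miR-200b to mmu-miR-141, counted from 1 at the 5′ end). Over 22 bases, mmu-miR-200a and mmu-miR-141 differed at 2 positions (C17A and U22G), as did mmu-miR-200b and mmu-miR-200c (U11G and A22G). The authors allowed 2 mismatches in the alignment, so that reads of these pairs can be exchanged. The members of the miR-183 cluster had a seed each, with 1 difference in the seed between mmu-miR-182 and mmu-miR-96 and between mmu-miR-183 and mmu-miR-96, and 2 between mmu-miR-182 and mmu-miR-183.

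The 8 hairpins fall into 3 clusters on the minus strand of NCBIM37. Mir429 (chr4:155428014-155428096), Mir200a (chr4:155429005-155429094) and Mir200b (chr4:155429790-155429859) span 1846 bp inside intron 1 of Ttll10, a gene on the same strand. Mir429 also lies in exon 2 of the non-coding transcript Gm13648, while Mir200a and Mir200b lie in its intron 1. Mir141 (chr6:124667932-124668003) and Mir200c (chr6:124668340-124668408) span 477 bp in intron 1 of the non-coding transcript Gm15884, between Phb2 and Ptpn6. Mir182 (chr6:30115918-30115992), Mir96 (chr6:30119446-30119551) and Mir183 (chr6:30119668-30119737) span 3820 bp between Nrf1 and Ube2h, where no other annotated gene overlaps them. The sequences above are the 3p arm in the miR-200 family and the 5p arm in the miR-183 cluster.

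All 8 members were more abundant in FCx than in HP, and most members were seen in HP with only a few counts. Levels are given in CPM, for which the counts of a library were scaled to a total of 1000000. The libraries of indexes 3, 7 and 11 held 391410, 1461732 and 652449 counts in FCx and 3206221, 4956117 and 4053518 in HP. FCx values therefore rest on fewer counts in total, and HP values of the members on fewer counts of the member itself. The reads carry no molecular identifiers, so that intervals and limits cover counting error only. The limit that 0 counts in a library leave is 3 counts, which corresponds to 7.66, 2.05 and 4.60 CPM in FCx and 0.936, 0.605 and 0.740 CPM in HP for indexes 3, 7 and 11.

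**Figure D1:**
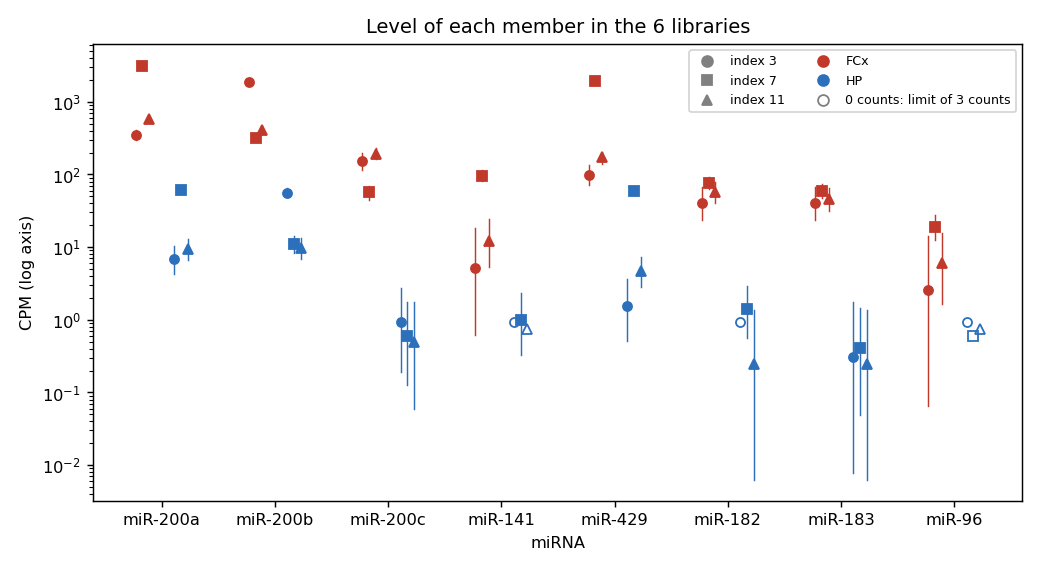
CPM (log axis) of each member in the 3 FCx libraries (red) and the 3 HP libraries (blue), with exact 95% Poisson intervals; open symbols are libraries with 0 counts, drawn at the limit of 3 counts. Every FCx value lies above every HP value of the same member, as for 24 of the 431 tested miRNAs (5.57%). With index 3 in FCx, mmu-miR-96 rests on 1 count and mmu-miR-141 on 2 counts. The members of the chromosome 4 cluster reach the highest levels in both regions.

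In the chromosome 4 cluster, mmu-miR-200a had 350.0, 3142 and 581 CPM in FCx and 6.86, 60.5 and 9.37 CPM in HP with indexes 3, 7 and 11. Within the same index this was 51.0 times (95% interval 32.4 to 84.1, exact method), 51.9 times (46.2 to 58.5) and 62.0 times (44.3 to 88.9) the level of HP. All 3 intervals overlap, although the level itself differed several times between the indexes.
mmu-miR-200b had 1847, 315 and 411 CPM in FCx and 56.5, 11.1 and 9.62 CPM in HP, with FCx 32.7 times (27.8 to 38.7), 28.4 times (21.5 to 38.3) and 42.7 times (30.4 to 61.4) the level of HP. mmu-miR-429 had 99.6, 1936 and 172 CPM in FCx and 1.56, 58.9 and 4.69 CPM in HP, and FCx was 63.9 times (25.2 to 207.7), 32.9 times (29.1 to 37.2) and 36.6 times (22.4 to 63.1) the level of HP. These are the abundant members by mean CPM. By that mean, mmu-miR-200a, mmu-miR-200b and mmu-miR-429 ranked 44, 55 and 59 of the 469 miRNAs in FCx and 197, 196 and 203 in HP. The rank depended on the index. With indexes 3, 7 and 11, mmu-miR-200a ranked 88, 23 and 56 in FCx and mmu-miR-200b 41, 76 and 74. mmu-miR-429 ranked 144, 32 and 107 in FCx and 324, 150 and 254 in HP, and with index 3 in FCx it was below mmu-miR-200c (rank 125).

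In the chromosome 6 cluster of mmu-miR-200c and mmu-miR-141, levels were lower and HP was near its detection limit. mmu-miR-200c had 153, 56.8 and 193 CPM in FCx and 0.936, 0.605 and 0.493 CPM in HP, where 3, 3 and 2 counts were found. The ratios of FCx to HP were 164 (53.4 to 817), 93.8 (31.0 to 464) and 391 (106 to 3267). With indexes 3 and 11 these intervals lie above those of mmu-miR-200b, which has the same seed, and with index 7 they overlap. mmu-miR-141 had 5.11, 96.5 and 12.3 CPM in FCx, with 2, 141 and 8 counts, and 0, 1.01 and 0 CPM in HP, with 5 counts in all. With index 7 FCx was 95.6 times (40.0 to 299) the level of HP, and with index 11 it was at least 10.6-fold higher (lower limit of the exact interval, 16.6-fold against the limit of 3 counts in the HP library).

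In the miR-183 cluster, mmu-miR-182 had 40.9, 76.6 and 56.7 CPM in FCx and 0, 1.41 and 0.247 CPM in HP, with 8 counts in HP. Its level in FCx was at least 31.6-fold higher with index 3 (lower limit of the exact interval, 43.7-fold against the limit of 3 counts), 54.2 times (25.5 to 138) that of HP with index 7 and 230 times (38.8 to 9322) with index 11. mmu-miR-183 had 40.9, 59.5 and 46.0 CPM in FCx and 0.312, 0.404 and 0.247 CPM in HP, where it rested on 1, 2 and 1 counts. Its ratios were 131 (20.4 to 5496), 147 (39.6 to 1237) and 186 (31.0 to 7604), which differ less than their intervals. mmu-miR-96 had 2.55, 19.2 and 6.13 CPM in FCx, with 1, 28 and 4 counts, and 0 counts in all 6 HP lane files. With indexes 7 and 11 it was at least 24.1-fold and at least 4.10-fold higher in FCx (lower limits of the exact intervals, 31.6-fold and 8.28-fold against the limit of 3 counts), and with index 3 it was under the limit of 3 counts in both regions.

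Over the libraries of FCx and of HP, the mean level of mmu-miR-200a was 1358 ± 1550 and 25.6 ± 30.3 CPM (each with the SD of 3 libraries), and that of mmu-miR-200b was 858 ± 858 and 25.7 ± 26.6 CPM. mmu-miR-429 had 736 ± 1040 and 21.7 ± 32.3 CPM. The SD of these abundant members was about as large as or larger than the mean in both regions. mmu-miR-182 had 58.1 ± 17.9 CPM and mmu-miR-183 had 48.8 ± 9.63 CPM in FCx, and mmu-miR-200c had 134 ± 70.1 CPM, so that these members varied less between the indexes than mmu-miR-200a, mmu-miR-429 and mmu-miR-141 (37.9 ± 50.8 CPM).

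The order of the members depended on the library. In FCx, mmu-miR-200b was the most abundant member with index 3, while mmu-miR-200a was with indexes 7 and 11. The neighbours mmu-miR-182 and mmu-miR-183 did not differ in any FCx library beyond counting error. Their ratio was 1.0 (0.468 to 2.14), 1.29 (0.964 to 1.72) and 1.23 (0.741 to 2.07) with indexes 3, 7 and 11. By counts, mmu-miR-96 was the lowest member in every FCx library, and mmu-miR-183 had 16.0 (2.49 to 671), 3.11 (2.01 to 4.94) and 7.50 (2.64 to 29.3) times its counts. With index 3 the lowest place rests on 1 count of mmu-miR-96 against 2 of mmu-miR-141. With index 11 both had 4 genome alignments on their arm.

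The summed level of each cluster was compared between the regions within each index. For the chromosome 4 cluster HP held 2.82%, 2.42% and 2.04% of the level of FCx with indexes 3, 7 and 11. For mmu-miR-200c with mmu-miR-141 it held 0.591%, 1.05% and 0.240%, from 3, 8 and 2 counts in HP. For the miR-183 cluster it held 0.370%, 1.17% and 0.453%, from 1, 9 and 2 counts. The chromosome 4 cluster thus had the largest share left in HP with each index. The 8 members together took 0.254%, 0.570% and 0.148% of all miRNA counts in FCx and 0.00661%, 0.0134% and 0.00247% in HP.

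For background, the FCx and HP libraries of all miRNAs were compared. A total of at least 2 counts in either region was required, which left 431 miRNAs and all 8 members, and mmu-miR-96 was there through its FCx counts alone. Every FCx library lay above every HP library for 24 of the 431 miRNAs (5.57%), the 8 members among them. An at least 10-fold higher level in FCx within each index, with HP set to its limit of 3 counts where it was lower, was found for 7 miRNAs (1.62%). They were 6 members and the star form mmu-miR-200b*, and mmu-miR-141 and mmu-miR-96 were not among them. With HP set to its limit of 3 counts, mmu-miR-141 was at 5.46 times the level of HP with index 3. For mmu-miR-96 it was 2.73 times with index 3 and 8.28 times with index 11. The lower limits of the exact intervals, which include the counting error of FCx, were 1.54, 0.210 and 4.10 in this order. In edgeR's quasi-likelihood test without a block, 2 of 431 miRNAs (0.464%) had an adjusted p under 0.05, both of them members, and 17 had an unadjusted p under 0.05. With the index as a block, 77 (17.9%) were called, 22 higher in FCx, among them all 8 members, and the other 55 had higher levels in HP. Since the members were chosen by this contrast, nothing is read from these counts about them. The log2 fold change of FCx over HP ran from 4.47 to 7.10 over the 7 members with counts in HP. That of mmu-miR-96, fitted at 7.47, depends on the prior count, since it had 0 counts in HP. With HP set to the limit of 3 counts over its libraries it was 5.09. This value leaves out the counting error of the 33 counts in FCx and is no lower limit. For mmu-miR-141, mmu-miR-182, mmu-miR-183 and mmu-miR-200c, with 5, 8, 4 and 8 counts in HP, the ratio of FCx to HP within an index moved by over 1.5 times with the prior count. With mmu-miR-96 set to 5.09, the median of the 8 members was 6.01 (6.42 as fitted), against a median of -0.37 over all 431 miRNAs on the same TMM-normalized scale.

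**Figure D2:**
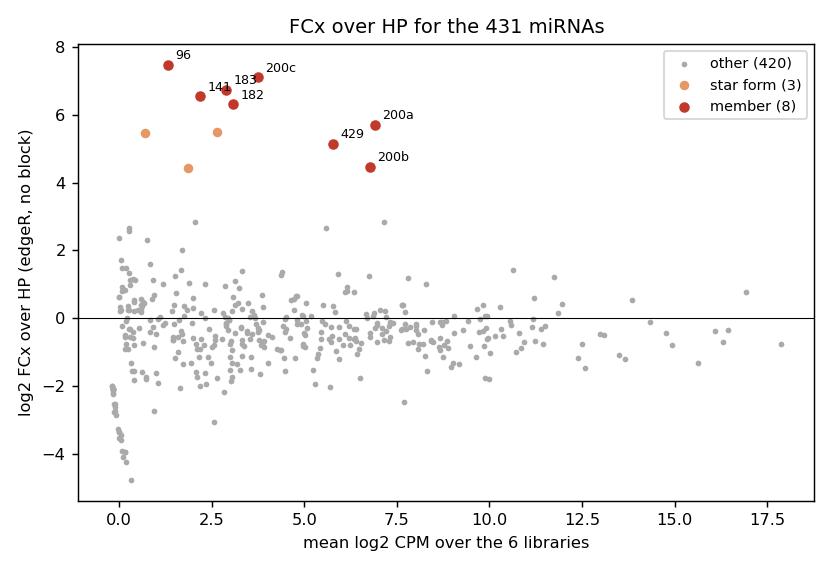
Log2 fold change of FCx over HP (edgeR without a block) against the mean log2 CPM of the 6 libraries for the 431 tested miRNAs; members are red, their 3 listed star forms orange and the other 420 grey. The members lie above all grey points, from 4.47 upwards; mmu-miR-96 (7.47) had 0 counts in HP, so that its height depends on the prior count.

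Outside the members and their star forms, the largest log2 fold changes among miRNAs that reached 10 counts in a region were those of mmu-miR-135a* (2.85, standard error 1.11), mmu-miR-1224 (2.83, standard error 0.91) and mmu-let-7d* (2.65, standard error 0.80). Their adjusted p in edgeR's quasi-likelihood test was 0.742, 0.376 and 0.300 without a block and 0.000898, 1.55e-18 and 4.91e-16 with the index as a block. All libraries of a region come from the same RNA pool. These p-values are therefore set against technical spread alone and cannot support a difference across mice. mmu-miR-1224, a miRNA cut from a short intron, had 404, 745 and 273 CPM in FCx and 46.8, 112 and 18.5 CPM in HP.
The same miRNAs were among those with the most similar pattern. Over the 6 libraries, the Pearson correlation of log2 CPM (prior count of 2) with the mean of the centred members was calculated for 345 other miRNAs. It was highest for mmu-let-7d* (r = 0.975), mmu-miR-383 (0.953), mmu-miR-1224 (0.945), mmu-miR-490 (0.910) and mmu-miR-135a* (0.886). This correlation describes 6 libraries of 2 pools, and it is dominated by the step between the regions. mmu-miR-383 had 2468, 2852 and 3783 CPM in FCx and 633, 1089 and 899 CPM in HP, a ratio of means of 3.47, against 53.1 for mmu-miR-200a. Among the members, the correlation of each with the mean of the other 7 ran from 0.795 for mmu-miR-200b to 0.993 for mmu-miR-182.

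The index was not used to choose the members, and its effect was tested with the region in the model, since each index was used once in FCx and once in HP. The levels of mmu-miR-200a, mmu-miR-429 and mmu-miR-141 were highest with index 7, that of mmu-miR-200b with index 3 and, in FCx, that of mmu-miR-200c with index 11. In edgeR's quasi-likelihood test 264 of the 431 miRNAs (61.3%) had an adjusted p under 0.05 for the index, and so had 7 of the 8 members. The adjusted p was 9.26e-20 for mmu-miR-200a, 1.73e-33 for mmu-miR-429, 3.84e-11 for mmu-miR-141 and 1.39e-09 for mmu-miR-200b. It was 0.0249 for mmu-miR-200c, 0.00485 for mmu-miR-182 and 0.0450 for mmu-miR-96, and mmu-miR-183 was not called (0.160). The call of mmu-miR-96, which had 0 counts in every HP library, was lost in 10 of 13 alternatives, that of mmu-miR-200c in 4, that of mmu-miR-182 in 3 and that of mmu-miR-141 in 1. Without the FCx library of index 7, 3 members were called, and 5 to 7 without any other single library.

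For mmu-miR-200a, mmu-miR-429 and mmu-miR-200b, the direction between indexes 3 and 7 was the same in the 2 regions. The profiles were not alike in every detail. With index 7 the ratio of mmu-miR-429 to mmu-miR-200a counts was 0.616 (0.588 to 0.646) in FCx and 0.973 (0.826 to 1.15) in HP. The lowest level of mmu-miR-200b was with index 7 in FCx and with index 11 in HP. mmu-miR-200a with index 7 was at 8.98 times its level with index 3 in FCx and at 8.82 times in HP. mmu-miR-429 was at 19.4 times in FCx and at 37.8 times in HP, where index 3 rests on 5 counts. mmu-miR-200b went the other way, and with index 3 was at 5.86 times its level with index 7 in FCx and at 5.09 times in HP. mmu-miR-200b, mmu-miR-200c and mmu-miR-429 share their first 8 bases, and their highest library in FCx was that of index 3, 11 and 7. mmu-miR-200a and mmu-miR-141 share their first 16 bases and were both highest with index 7, where mmu-miR-141 was at 18.9 times its level with index 3 in FCx, from 2 counts with index 3. Of the 141 counts of mmu-miR-141 with index 7, which may include reads of mmu-miR-200a, 37 were matched by an alignment on its hairpin.

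**Figure D3:**
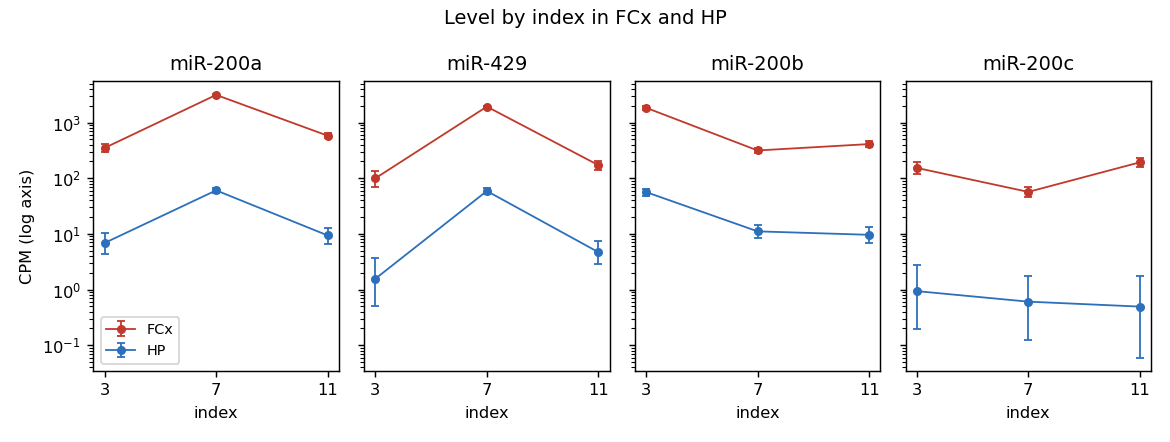
CPM (log axis) of 4 members with indexes 3, 7 and 11 in FCx (red) and HP (blue), with exact 95% Poisson intervals. mmu-miR-200a and mmu-miR-429 peak with index 7 in both regions and mmu-miR-200b with index 3 in both; mmu-miR-200c in HP rests on 8 counts.

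The ratio of the neighbours mmu-miR-200a and mmu-miR-200b followed the index in both regions. The ratio of mmu-miR-200a to mmu-miR-200b counts was 0.189 (0.157 to 0.228), 9.96 (9.05 to 11.0) and 1.41 (1.21 to 1.66) in FCx with indexes 3, 7 and 11. In HP it was 0.122 (0.0743 to 0.190), 5.45 (4.08 to 7.41) and 0.974 (0.607 to 1.56). Which of the neighbouring hairpins Mir200a and Mir200b appeared more abundant therefore changed with the index, and in HP with index 11 the 2 did not differ beyond counting error. With index 7 the interval in HP lay below that in FCx. The ratio of mmu-miR-200c to mmu-miR-141 in FCx was 30.0 (7.95 to 253), 0.589 (0.443 to 0.777) and 15.8 (7.75 to 37.3). By genome alignments at the hairpins the ratio with index 7 was 2.03 (1.35 to 3.09), from 75 and 37 alignments, so that its direction turned.

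The star forms listed in the count files were mmu-miR-200a*, mmu-miR-200b* and mmu-miR-183*, the opposite strands of 3 members. mmu-miR-200b* had 4, 117 and 14 counts in FCx and 2, 8 and 0 in HP. Of the counts on both strands it made up 0.550% (Wilson 95% interval 0.214 to 1.41), 20.2% (17.2 to 23.7) and 4.96% (2.98 to 8.16) in FCx, and 1.09% (0.300 to 3.90), 12.7% (6.58 to 23.1) and 0% (0 to 8.97) in HP. The share was thus highest with index 7 in both regions, the index with which mmu-miR-200b itself was lowest in FCx. mmu-miR-200a* had 3, 16 and 9 counts in FCx and 1, 4 and 0 in HP, and mmu-miR-183* had 1, 5 and 1 in FCx and 0 in HP. Each FCx library lay above each HP library for all 3 star forms, as for 5.57% of all miRNAs, although mmu-miR-183* with indexes 3 and 11 was under the limit of 3 counts. The means were 10.8 ± 3.07 CPM in FCx and 0.373 ± 0.407 CPM in HP for mmu-miR-200a* (SD of 3 libraries) and 37.2 ± 37.5 and 0.746 ± 0.814 CPM for mmu-miR-200b*.

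Genome alignments over the hairpins were compared with the counts to see whether the counted reads fell on these loci. On the strand of the hairpin, the arm of mmu-miR-429 held 3255 alignments for 3297 counts (98.7%) over the 6 libraries. The corresponding share ran from 90.9% to 96.4% for mmu-miR-200a, mmu-miR-200b, mmu-miR-200c, mmu-miR-182, mmu-miR-183 and mmu-miR-96. In HP alone, mmu-miR-182 had 9 alignments for 8 counts, and mmu-miR-183 had 2 for 4. mmu-miR-141 differed, with 42 alignments for 156 counts (26.9%). It had 1, 37 and 4 alignments in FCx for 2, 141 and 8 counts, and 0 in HP for 5 counts. The level of mmu-miR-141 from the counts is therefore uncertain, and where its other reads aligned was not tested. Antisense to the hairpins there were 2 alignments in all, at Mir429. The opposite arm of the hairpins of mmu-miR-200c, mmu-miR-141, mmu-miR-429 and mmu-miR-96 held 0 alignments, while 2 alignments in FCx lay on the 3p arm of Mir182, for which no star form is listed.

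**Figure D4:**
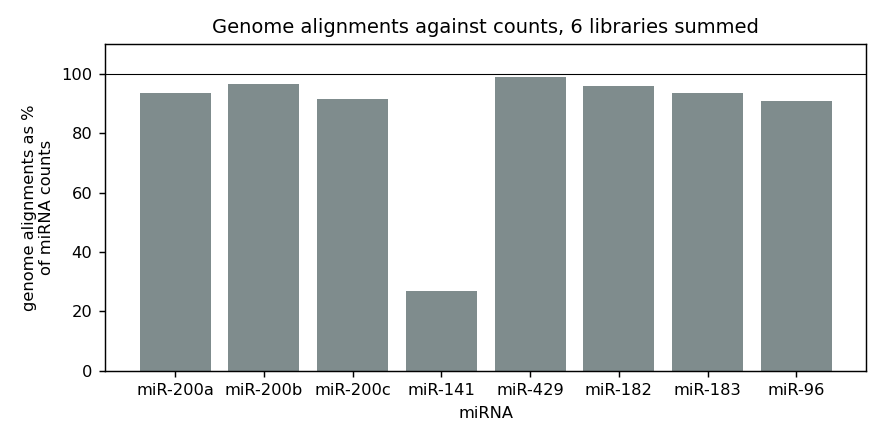
Genome alignments on the arm of each member, on the strand of the hairpin, as a percentage of its counts, with the 6 libraries summed. mmu-miR-141 stands at 26.9% and the other members between 90.9% and 98.7%.

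Most reads started at the first base of the mature miRNA as RefSeq gives it. The share was 97.5% of 5116 alignments for mmu-miR-200a, 97.6% of 3255 for mmu-miR-429, 97.6% of 253 for mmu-miR-200c and 94.3% of 1665 for mmu-miR-200b. mmu-miR-183 stood apart with 73.4% of 128 alignments, and 25.8% of them started 1 nt further downstream, which moves the seed by 1 base. Over the 140 mature miRNAs with at least 10 alignments in every library, the median share was 97.1%, with quartiles of 91.7% and 98.7%. mmu-miR-183 is not among these 140.
By library, the share of mmu-miR-183 alignments starting 1 nt downstream was 18.8% (Wilson 95% interval 6.59 to 43.0; 3 of 16), 33.3% (24.2 to 43.9; 28 of 84) and 3.85% (0.682 to 18.9; 1 of 26) in FCx with indexes 3, 7 and 11. For mmu-miR-200b it was 2.99% (1.96 to 4.53), 10.6% (8.05 to 13.8) and 2.34% (1.08 to 5.02) in FCx, and 1.16% (0.318 to 4.12), 13.5% (6.68 to 25.3) and 2.63% (0.466 to 13.5) in HP. The downstream start of mmu-miR-200b was thus most frequent with index 7 in both regions, and the interval of index 7 lay above those of indexes 3 and 11 in FCx. The same order of indexes was found for mmu-miR-183 in FCx, where the intervals of indexes 7 and 11 do not overlap. Over both regions, the share was also highest with index 7 for mmu-miR-200a (1.35%, 2.20% and 0.266% with indexes 3, 7 and 11), mmu-miR-429 (0%, 1.78% and 0.763%) and mmu-miR-182 (0%, 3.54% and 2.78%). Among these 3, the intervals did not overlap for indexes 7 and 11 of mmu-miR-200a (1.81 to 2.67 against 0.0470 to 1.49), and overlapped in the other pairs with index 7. The share was not highest with index 7 for mmu-miR-200c, which shares its first 10 bases with mmu-miR-200b, and of which 2 of 58 alignments started downstream with index 3, 0 of 77 with index 7 and 0 of 118 with index 11 over both regions.

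**Figure D5:**
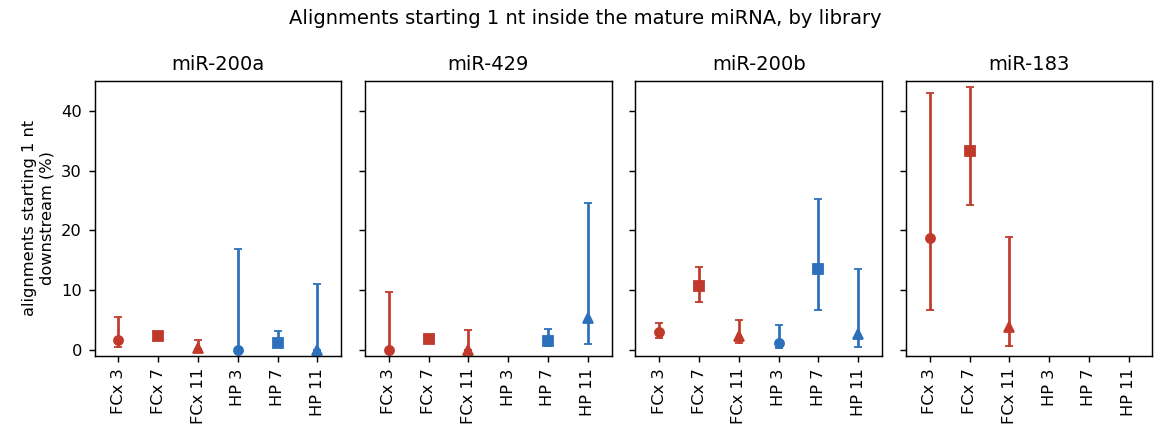
Share of genome alignments that start 1 nt downstream of the mature start, by library (FCx red, HP blue; circles index 3, squares index 7, triangles index 11), with Wilson 95% intervals; libraries with fewer than 10 alignments are not drawn. mmu-miR-200b reaches 10.6% and 13.5% with index 7, and mmu-miR-183 33.3%.

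Only mmu-miR-200a and mmu-miR-200b had at least 10 alignments in every library, so that the reads themselves could be compared between the regions. For mmu-miR-200a, the share starting at the mature start was 98.3% ± 0.971 in FCx and 99.5% ± 0.813 in HP (SD, n = 3 each), a difference of -1.27 percentage points (exact permutation test, two-sided, p = 0.2). It was lower in FCx with each of the 3 indexes (differences of -1.55, -1.38 and -0.870 percentage points), and an exact permutation within the pairs of the same index, chosen after seeing the data, gave p = 0.25, the smallest that 3 pairs allow. For mmu-miR-200b it was 94.1% ± 5.06 and 94.1% ± 6.53 (difference 0.0227, exact permutation p = 1.0). With 3 values per region this exact permutation test cannot go below p = 0.1, and so cannot call a difference. The mean length in FCx minus that in HP was -0.00301 nt for mmu-miR-200a and -0.00281 nt for mmu-miR-200b (exact permutation p = 0.8 for each, n = 3). Length carries little information in these files. Alignments are at most 23 nt long, and 97.6% of the 166 alignments of mmu-miR-182, whose mature form has 25 nt, are listed with 22 nt.

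Marker miRNAs of other tissues were examined beside these levels. For the olfactory and sensory epithelium no marker miRNAs other than the members themselves were listed, and no olfactory library was analysed here, so whether olfactory tissue in the FCx dissection contributed was not tested. The epithelial list, with mmu-miR-203 and mmu-miR-205 of the skin, mmu-miR-192, mmu-miR-194 and mmu-miR-215 of the gut and kidney, mmu-miR-31 and mmu-miR-375, had 7 of 7 members listed, and 6 could be tested. Its summed level was 491, 625 and 325 CPM in FCx and 368, 590.4 and 287 CPM in HP with indexes 3, 7 and 11. The most abundant was mmu-miR-192, with 209 CPM in FCx and 215 CPM in HP as means. Of this list, mmu-miR-205 had 1 count in FCx and 1 in HP. mmu-miR-203 had 61.3, 18.5 and 44.4 CPM in FCx and 27.4, 10.5 and 19.2 CPM in HP, and edgeR's quasi-likelihood test did not call it (adjusted p = 0.992 without a block and 0.194 with the index as a block). mmu-miR-31 had 94.5, 263 and 39.8 CPM in FCx and 36.5, 165 and 16.3 CPM in HP, with edgeR adjusted p of 0.992 and 0.0750 in these fits. The levels of mmu-miR-203 and mmu-miR-31 were thus above those of HP with every index, with ratios of mean CPM of 2.17 and 1.82. Those of mmu-miR-375 lay below, with 81.8, 51.3 and 105.8 CPM in FCx and 82.3, 81.3 and 110.3 CPM in HP (edgeR adjusted p of 0.992 and 0.0927). mmu-miR-194 had 38.3, 1.37 and 7.66 CPM in FCx and 32.7, 2.82 and 12.6 CPM in HP, below HP with indexes 7 and 11 alone. None of the 6 was called in either fit, where 0.464% and 17.9% of all miRNAs were, and their median log2 fold change of -0.36 was close to that of all miRNAs.

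The choroid plexus and ependyma list had 6 of 6 members listed and tested, with 94.5, 67.7 and 50.6 CPM in FCx and 249.8, 281 and 93.0 CPM in HP. In the blocked fit, where 55 of the 431 miRNAs (12.8%) were called higher in HP, 3 of the 6 were called, all higher in HP, which were mmu-miR-34b-5p, mmu-miR-34c (the most abundant) and mmu-miR-204. The pituitary and endocrine list (mmu-miR-375, mmu-miR-7a and mmu-miR-7b) had 501, 253 and 167 CPM in FCx and 1596, 787 and 270.1 CPM in HP. With the block mmu-miR-7a (the most abundant) and mmu-miR-7b were called, both higher in HP, and mmu-miR-375, which is shared with the epithelial list, was not. Neither list had a call in the fit without a block.

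The muscle list (mmu-miR-1, mmu-miR-133a, mmu-miR-133b and mmu-miR-206) had 123, 1079 and 106 CPM in FCx and 123, 816 and 71.5 CPM in HP, mostly mmu-miR-1. The 7 blood markers summed to 99.6, 183 and 112 CPM in FCx and 109, 181 and 69.3 CPM in HP, where mmu-miR-451 of erythrocytes had the highest mean level (65.6 CPM in FCx and 74.5 CPM in HP). The liver marker mmu-miR-122 had 12.8, 6.84 and 1.53 CPM in FCx and 4.68, 24.0 and 0.493 CPM in HP. None of these markers was called in either fit. Of the hindbrain and spinal cord markers, mmu-miR-10a averaged 2.61 CPM in FCx (5 counts) and 1.59 CPM in HP (19 counts), mmu-miR-10b had 1 count in FCx and mmu-miR-196a 1 count in HP. mmu-miR-196b is not listed in the count files. mmu-miR-10b and mmu-miR-196a had too few counts to be tested.

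The 6 brain markers, which check the labelled tissue, took 259526, 273472 and 263938 CPM in FCx and 108657, 170275 and 155124 CPM in HP. The most abundant was mmu-miR-128, with 193829 and 81735 CPM as means, and mmu-miR-124 of neurons had 29926 and 18949 CPM. Both regions were thus rich in brain miRNAs. With the index as a block, mmu-miR-132, a miRNA induced by neuronal activity, was called higher in FCx. In the same fit mmu-miR-9 and mmu-miR-219, the latter of oligodendrocytes, were called higher in HP. These calls are set against technical spread between libraries of the same RNA pool, not against spread between mice. In the fit without a block none of the 6 was called. The part of other tissue in the levels of the miR-200 family and the miR-183 cluster was not tested.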

How the data were processed

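Small RNA of FCx and HP was sequenced in 12 lane files. According to the study's methods, the authors sorted reads by index, clipped the index and the 3′ adaptor, discarded dimers of the adaptors, rRNA, mitochondrial and homopolymer reads and those below 14 nt, and used Bowtie (up to 2 mismatches) against NCBIM37 and the mature miRNAs of miRBase version 11. The submitters' processing notes name Bowtie and NCBIM37, with no version of Bowtie. The count values were deposited by the authors as whole reads per mature miRNA and lane file, without normalization, and a miRNA with no read is not listed. The genome alignment files, as deposited, give a start, end and strand per read. Their alignment score, a constant deposited by the authors, was not used. They hold alignments under 14 nt despite the stated filter, from 2.88% to 25.8% per lane file in FCx and from 1.12% to 8.34% in HP, and these enter the totals behind levels from alignments. Alignments are capped near 22 nt, which hides the 3′ ends of longer miRNAs.

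Both runs of a library were summed (n = 3 libraries per region), and depth per library is given with the levels. The members, marker lists and tests were chosen with earlier results of these data known. Named are the 8 members, their listed star forms, the marker miRNAs, the 5 miRNAs most like the members in log2 CPM, and the 3 largest other fold changes, the last chosen after their values were seen. FCx and HP were compared with edgeR 4.0.16 in R 4.3.3 (quasi-likelihood test, TMM, Benjamini-Hochberg adjustment over 431 miRNAs with at least 2 counts in a region), and the index effect with the region in the same model. Libraries with the same index deviated together (r = 0.748, 0.841 and 0.829 across the 431 miRNAs), so that the index pairs the libraries and was also fitted as a block. For different indexes r was -0.580 to -0.244. These negative values add no separate support, since deviations among 3 libraries of a region largely cancel. DESeq2 1.42.0, other scalings, filters, lane types and left-out libraries were alternatives. Intervals are exact for counts and their ratios and Wilson's for shares, at 95%. Hairpins are those of GENCODE vM1, and mature sequences are RefSeq's, of which 696 of 1738 were found once in their hairpin in NCBIM37, all 8 members among them. Python 3.11.15, pandas 2.3.3, numpy 2.4.6, scipy 1.17.1 and matplotlib 3.10.9 were used. In simulated counts, edgeR recovered 155 of 191 changed miRNAs without a block (9 false calls) and 152 of 191 with it (9). For the index it recovered 150 of 197 (3 false calls). The counts simulated for the region held no index effect, unlike these data, and so do not show how these fits perform here.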

Additional observations from a re-analysis of the deposited data

How the results depend on the processing

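The median over the 8 members of the log2 ratio of FCx to HP within an index was 5.31 (mean of 3 indexes, prior count of 2). It was 4.58 with genome alignments in place of counts, 5.11 with the individual lanes alone, 4.56 with the pooled lanes alone, 4.92 with TMM factors, 5.16 with DESeq2 size factors and 5.86 with a prior count of 0.5, and from 5.27 to 5.34 when a library of either region was left out, which also removes its partner of the same index. Leaving out replicate 1 of either region gave 4.87 for mmu-miR-141 and 3.85 for mmu-miR-96, and leaving out replicate 2 gave 3.43 and 2.57, against 4.20 and 3.25. No member changed its direction in these alternatives, although the size moved, also for the abundant members. With a prior count of 0.5 in place of 2, mmu-miR-200c went from 6.34 to 7.11, mmu-miR-141 from 4.20 to 5.65, mmu-miR-182 from 5.52 to 6.74, mmu-miR-183 from 5.43 to 6.54 and mmu-miR-96 from 3.25 to 5.10. Genome alignments gave 5.08 for mmu-miR-200a (5.68 with counts), 4.34 for mmu-miR-200b (5.01), 4.43 for mmu-miR-429 (5.13) and 2.92 for mmu-miR-141. They gave 5.67 for mmu-miR-200c, 4.70 for mmu-miR-182 and 2.20 for mmu-miR-96. TMM gave 5.26, 4.60 and 4.73 for mmu-miR-200a, mmu-miR-200b and mmu-miR-429. The pooled lanes gave 3.69 for mmu-miR-182, 5.28 for mmu-miR-200c, 4.55 for mmu-miR-183 and 2.47 for mmu-miR-96. The individual lanes gave 2.98 for mmu-miR-141, 4.79 for mmu-miR-183 and 2.13 for mmu-miR-96. The number of miRNAs called between FCx and HP was 2 without a block. Fitting the index as a replicate block, which pairs the libraries, gave 77 with TMM and 56 with library totals. It was 12 with DESeq2's Wald test, 8 with no filter, and 0 with the pooled lanes alone, where 18 had an unadjusted p under 0.05. Leaving out 1 library gave 0 to 7 calls, with 0 without HP replicate 1 (14 with an unadjusted p under 0.05) and without HP replicate 3 (17). These 2 fits were run with edgeR alone. The index effect was called for 210 to 269 miRNAs in all alternatives, against 264. The number of members called for it was 5 to 7 of 8, except for 3 without FCx replicate 2, and leaving out a library gave 3 to 7. Where a library is left out, its index rests on 1 library, which is assumed to vary like the others. Over these alternatives the edgeR or DESeq2 adjusted p of mmu-miR-96 for the index ran from 0.0361 to 0.847, that of mmu-miR-141 from 3.61e-14 to 0.330, that of mmu-miR-183 from 0.0608 to 0.722, that of mmu-miR-200c from 0.000284 to 0.237 and that of mmu-miR-182 from 0.00255 to 0.163, while mmu-miR-200a, mmu-miR-200b and mmu-miR-429 were called in each. The difference in the share of mmu-miR-200b reads at the mature start, 0.0227 percentage points, became -1.09 with the individual lanes and ran from -3.74 to 2.92 when a library was left out (-1.09 without FCx replicate 1, -1.77 without FCx replicate 3 and -3.74 without HP replicate 2). Pairing the libraries by index, chosen after seeing the data, left the differences in read starts and lengths as they are, with exact permutation p of 0.25 and 1.0 for the starts of mmu-miR-200a and mmu-miR-200b and 0.75 for both lengths. The difference in the length of mmu-miR-200a reads became 0.00789 nt with the pooled lanes. The cause of these changes was not tested. Depth limits mmu-miR-141, mmu-miR-182, mmu-miR-183, mmu-miR-96 and mmu-miR-200c in HP, each at 8 counts or fewer.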
